A study of Mus musculus with 6 samples.

Results

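Mouse chromosomes 17 and 18 carried 5188 of the 32988 CTCF peaks that 4 deposited lists placed on chromosomes 1 to 19, X and Y, 2942 on chromosome 17 and 2246 on chromosome 18. Every peak on these chromosomes was taken, from all lists, and 14 mitochondrial rows of untreated 2 were left out of its total. The chromosomes were selected on the measured number of peaks per Mb, which in each list was highest on chromosome 15, next on 17 and next on 18, so their density is given as a description without a test. The peaks come from chromatin immunoprecipitation and sequencing of CTCF in the mouse hepatoma cell line Hepa-1c1c7. One group was untreated (0 µM) and the other received 25 µM potassium chromate, a hexavalent chromium salt, for 90 min before fixation. Each group had 2 CTCF libraries, numbered 1 and 2, and the 2 input samples serve only as the background of the authors' calls. The labels do not say whether the libraries of each group are separate cultures, so p-values measure only the spread between these libraries, which may be technical. Chromosome 17 holds the major histocompatibility complex, a dense cluster of antigen presentation genes, and chromosome 18 holds the clustered protocadherin genes, whose promoter choice in neurons depends on CTCF.

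CTCF binds DNA through a row of zinc fingers, at insulators, at boundaries of chromatin domains and at some promoters. On looped chromatin it stops the cohesin complex, and pairs of bound sites commonly mark the feet of loops.

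The chromosome 17 sites that recurred between lists at gene starts can be shown as sequence, and 5 windows are printed here. A recurrent site is a group of overlapping peaks from 2 or more lists. The windows run from 250 bases before to 50 bases after a start, in RefSeq's GRCm38.p6 assembly, the same coordinates as mm10. Each is written 5′ to 3′ on the strand of its gene. Capitals mark the 12-base CTCF core motif in Slc35b2, and otherwise any of 4 spellings of a 7-base core, AGAGGGC with the variant AGATGGC, the variant AGGGGGC and the variant AGGTGGC, on either strand. The 7-base spellings are part of the 12-base core, so one match can count for both. Slc35b2 was chosen as the window with the 12-base core, Abca3 and Tfeb as gene starts found in 3 lists, Ciao3 as a site in 2 lists with a core near its middle, and Mapk14 as a site in 2 lists with neither motif in the window.
Slc35b2, chr17:45563686-45563985, plus strand: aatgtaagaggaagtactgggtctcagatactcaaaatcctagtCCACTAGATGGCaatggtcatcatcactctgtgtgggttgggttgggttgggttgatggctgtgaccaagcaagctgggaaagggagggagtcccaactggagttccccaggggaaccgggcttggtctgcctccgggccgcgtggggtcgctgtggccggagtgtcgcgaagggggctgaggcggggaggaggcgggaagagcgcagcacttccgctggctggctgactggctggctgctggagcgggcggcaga
Abca3, chr17:24351773-24352072, plus strand: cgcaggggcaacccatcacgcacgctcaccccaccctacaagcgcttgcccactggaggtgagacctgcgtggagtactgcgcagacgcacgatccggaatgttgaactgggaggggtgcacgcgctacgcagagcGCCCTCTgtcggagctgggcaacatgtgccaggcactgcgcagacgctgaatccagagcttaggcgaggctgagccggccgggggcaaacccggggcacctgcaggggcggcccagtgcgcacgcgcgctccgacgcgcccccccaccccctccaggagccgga
Ciao3, chr17:25773526-25773825, plus strand: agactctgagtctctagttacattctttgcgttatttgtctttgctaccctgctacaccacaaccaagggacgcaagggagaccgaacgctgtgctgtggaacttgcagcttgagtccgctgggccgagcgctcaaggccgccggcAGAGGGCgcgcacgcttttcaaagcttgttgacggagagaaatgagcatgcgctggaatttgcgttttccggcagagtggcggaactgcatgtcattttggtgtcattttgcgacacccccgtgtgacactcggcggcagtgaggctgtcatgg
Tfeb, chr17:47736787-47737086, plus strand: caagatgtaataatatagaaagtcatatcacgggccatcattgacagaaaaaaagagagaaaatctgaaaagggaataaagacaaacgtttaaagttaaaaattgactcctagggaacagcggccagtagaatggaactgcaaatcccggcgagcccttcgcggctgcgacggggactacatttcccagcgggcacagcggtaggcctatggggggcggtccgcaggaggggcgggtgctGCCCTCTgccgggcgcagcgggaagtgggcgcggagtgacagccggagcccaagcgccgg
Mapk14, chr17:28691092-28691391, plus strand: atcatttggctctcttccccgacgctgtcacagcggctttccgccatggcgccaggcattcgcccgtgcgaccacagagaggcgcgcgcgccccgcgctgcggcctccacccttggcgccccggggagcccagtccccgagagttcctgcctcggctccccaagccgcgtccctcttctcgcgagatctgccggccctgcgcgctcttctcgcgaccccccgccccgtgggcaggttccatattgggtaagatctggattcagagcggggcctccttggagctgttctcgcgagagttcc

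The Slc35b2 window, at a gene for a Golgi transporter of the sulfate donor, held the 12-base core at 45563730 to 45563741, 206 bases before the start. The window has a further 7-base match that is not capitalised. In the Ciao3 window, at a gene for a cytosolic iron-sulfur assembly factor, the core lay 2 bp from the middle of the site, which had a mean percentile of 97.0. In the windows of Abca3, a lipid transporter of lung surfactant, and of Tfeb, a transcription factor of lysosomal genes, it lay 32 and 44 bp from the middle, on the opposite strand. Mapk14, the p38 alpha stress kinase, had a site at percentiles of 96.0 in untreated 1 and 95.1 in chromium 1 and no match in these letters, which says nothing of binding.

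In all, 20 RefSeq start windows on chromosome 17 were overlapped by a site in 2 or more lists. The 7-base core was present in 13 of these 20 windows (65.0%), against 28.8% of the 1626 windows on chromosome 17 and 27.6% of all 32851 windows in the table. The 12-base core was present in 1 of the 20, in 0.308% of the windows on chromosome 17 and in 0.557% of all windows. These are shares of windows, not of sites. Sh3gl1 has 2 windows over the same site, both with the 7-base core, and Nfkbil1 and Atp6v1g2 share a site. A counted match can also lie outside the site, as at Alkbh7 and Kifc5b, 332 and 255 bp from its middle. The overlapped windows were also richer in C and G. Their median GC content was 60.8%, against 54.3% on chromosome 17 and 52.7% over all windows, and their median number of CG pairs was 21, against 8 and 7. The part of this composition in the motif shares was not tested.

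The first measurement was how much of each list lay on these chromosomes. Untreated 1 held 1885 of its 11707 peaks there, chromium 1 held 2342 of 14881, untreated 2 held 689 of 4495 and chromium 2 held 272 of 1905. These are shares of 16.1% (95% Clopper-Pearson interval 15.4 to 16.8), 15.7% (15.2 to 16.3), 15.3% (14.3 to 16.4) and 14.3% (12.7 to 15.9), with intervals that cover counting error over peaks only. The 4 shares lay within 2 points of each other, although the lists themselves differed in length by several fold. On chromosome 17 the lists had 11.2, 14.8, 4.37 and 1.68 peaks per Mb in the same order, and on chromosome 18 9.75, 11.2, 3.26 and 1.33. All other chromosomes together had 3.95, 5.04, 1.53 and 0.656 peaks per Mb, and chromosome 15 had 15.4, 19.1, 9.79 and 4.66.

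Whether chromium changed the share of the list on chromosomes 17 and 18 was compared over libraries. The untreated libraries had a mean share of 15.7% ± 0.547 (SD, n = 2) and the chromium libraries one of 15% ± 1.03 (SD, n = 2), a difference of -0.707 points. This share follows the density on which the chromosomes were selected, so it is given without a test. The difference was -0.363 points within number 1 and -1.05 within number 2. It was smaller than the spread between the chromium libraries, and without chromium 2 it was 0.0234 points in the other direction.

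Along both chromosomes the peaks were counted in 1 Mb bins by their midpoints. No list had a peak in the first 3 Mb of either chromosome, and the 92 bins of chromosome 17 and 88 bins of chromosome 18 beyond were used. The profiles of the 4 lists resembled each other. Over the bins, Pearson's r between pairs of lists ran from 0.486 to 0.865 on chromosome 17 and from 0.550 to 0.853 on chromosome 18, where the lists share the gene distribution, the genome build and, within a number, the input. Counts were uneven. The variance of bin counts was 5.37, 5.50, 3.58 and 1.36 times their mean on chromosome 17 and 7.65, 6.0, 4.85 and 1.74 times on chromosome 18, in the order untreated 1, chromium 1, untreated 2 and chromium 2. Bins with no peak numbered 0, 0, 9 and 22 on chromosome 17 and 1, 0, 23 and 31 on chromosome 18.

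**Figure D1:**
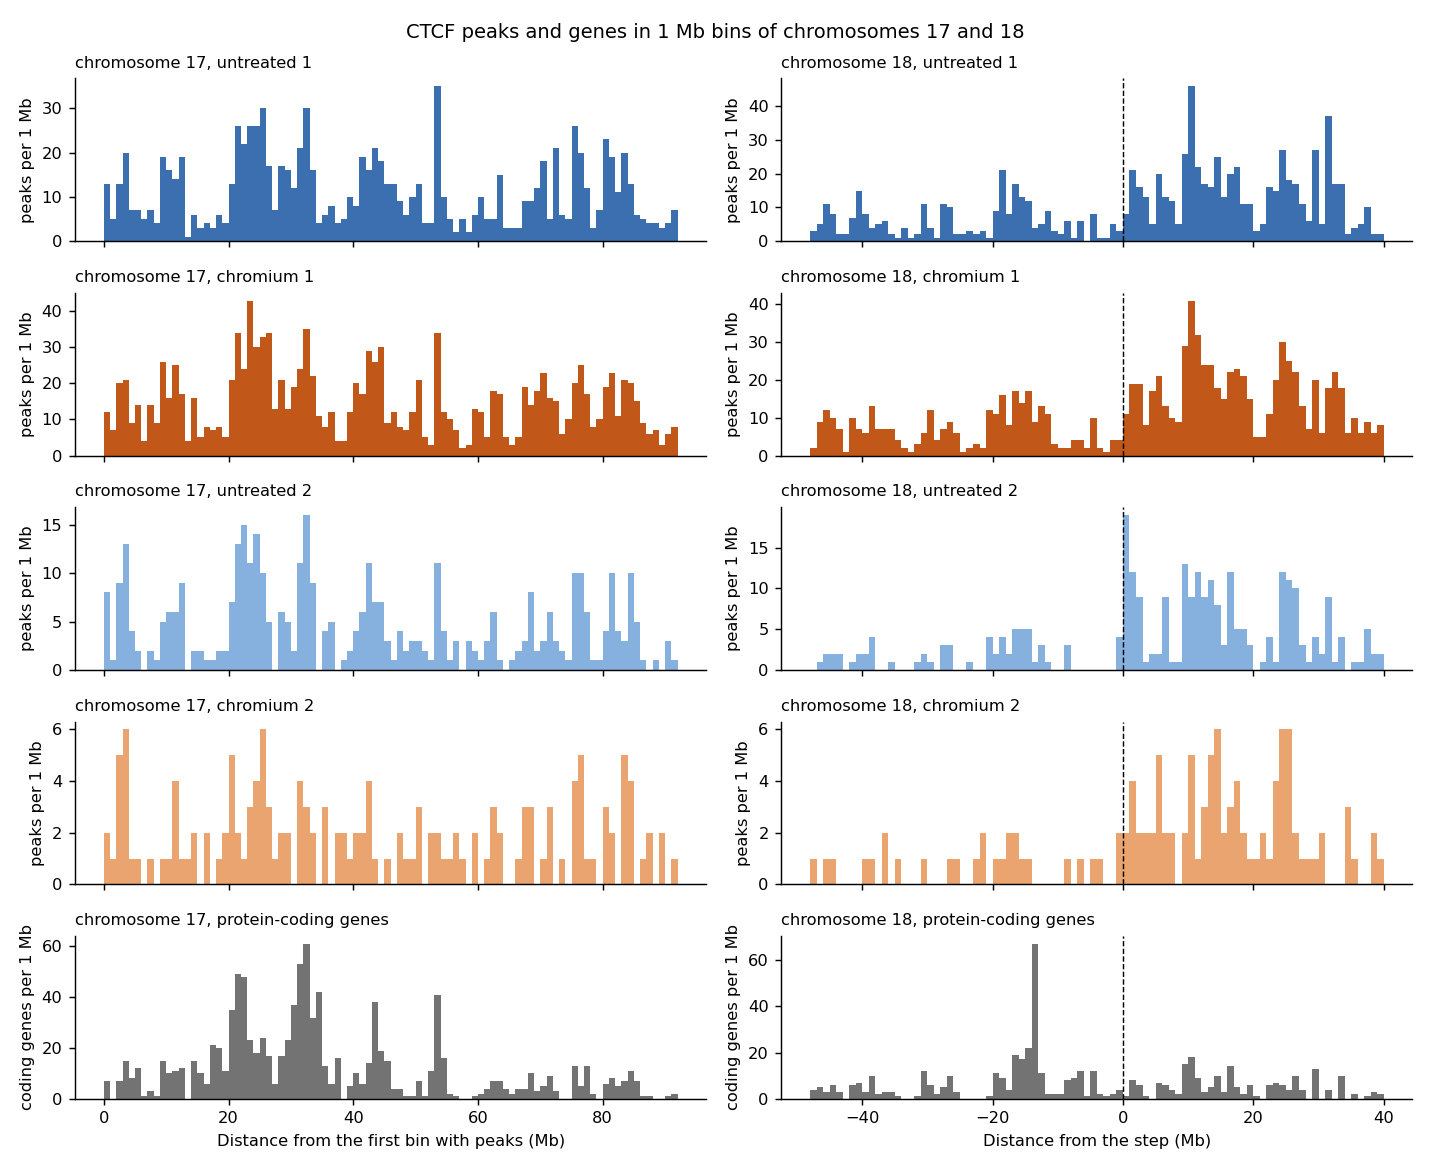
Peaks per 1 Mb bin along chromosome 17 (left, x axis in Mb from the first bin with peaks) and chromosome 18 (right, x axis in Mb from the step, dashed line) in each list, with protein-coding genes per bin below; the y axes differ between panels. On chromosome 18 all 4 lists are denser after the step, while the tallest bar of genes, 67 in the bin of the clustered protocadherins, stands before it.

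On chromosome 18 the density rose near 51 Mb in all 4 lists. A single change of rate was fitted to each list separately and placed the step at 52 Mb in untreated 1, 51 Mb in chromium 1, then 50 Mb in untreated 2 and 50 Mb in chromium 2. The joint fit over the 4 lists placed it at 51 Mb. Before 51 Mb there were 5.63, 6.79, 1.40 and 0.583 peaks per Mb, and after it 14.7, 16.5, 5.50 and 2.23. The ratio of the rates was 2.61 (95% exact interval 2.26 to 3.03), 2.42 (2.12 to 2.77), 3.94 (2.99 to 5.26) and 3.81 (2.47 to 6.06), with intervals that treat peaks as independent. The position was chosen on these counts, so the ratios are a description. Placing the step from the other 3 lists moved it by at most 1 Mb and gave ratios of 2.61, 2.42, 2.94 and 3.81.

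The size of the step differed more between replicate numbers, a difference that was not tested, than between treatments. The mean log2 ratio was 1.33 in the number 1 libraries and 1.96 in the number 2 libraries, and the chromium minus untreated difference was -0.08, also given as a description. Of the peaks on chromosome 18, 68.5% in untreated 1, 66.9% in chromium 1, then 76.7% in untreated 2 and 76.1% in chromium 2 lay after the step. Untreated 2 had no peak over the 7.69 Mb between 42708816 and 50403470 on chromosome 18 and then 19 peaks in the single bin from 51 to 52 Mb, its highest count on the chromosome, where the other lists had 8, 11 and 2. From 47 to 50 Mb, just before the change, the lists had 7, 7, 0 and 1 peaks in all, and from 52 to 54 Mb they had 37, 38, 21 and 6.

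Over the whole sides of this step, gene density was 6.52 protein-coding genes per Mb before it and 4.95 after it. The bin from 37 to 38 Mb, before the step, alone held 67 genes. Close to the step the order was the reverse, with 2.25 genes per Mb from 47 to 51 Mb and 3.89 from 51 to 60 Mb. In the bins with at most 1 coding gene, 12 before and 11 after the step, peaks per Mb went from 1.83 to 7.18 in untreated 1, from 2.83 to 9.27 in chromium 1, from 0.5 to 3.0 in untreated 2 and from 0.33 to 1.36 in chromium 2. In untreated 2 much of this rise rests on 1 gene-poor bin, that from 51 to 52 Mb with 19 peaks. Without that bin the gene-poor bins after it had 1.40 peaks per Mb, still above the 0.5 before it. With the step placed at 52 Mb, from the other 3 lists, that bin falls before it and the gene-poor bins of untreated 2 went down, from 1.92 to 1.40 peaks per Mb, a ratio of 0.728. The highest stretch was from 60 to 70 Mb, with 21.8, 24.9, 8.70 and 3.30 peaks per Mb and 8.40 genes per Mb. From 51 to 60 Mb the lists had 12.6, 14.1, 6.22 and 2.33 peaks per Mb. Stretches of chromosomes were set after the counts had been seen. A measure of local contrast, the difference between the mean counts of 5 bins on either side, put the joint change on chromosome 18 at 60 Mb instead of 51 Mb. List by list, its largest value was a fall at 85 Mb in untreated 1, a rise at 60 Mb in chromium 1, a rise at 50 Mb in untreated 2 and a fall at 79 Mb in chromium 2. By local contrast the lists therefore had no change in common, and the shared position holds for the best single change in rate.

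**Figure D2:**
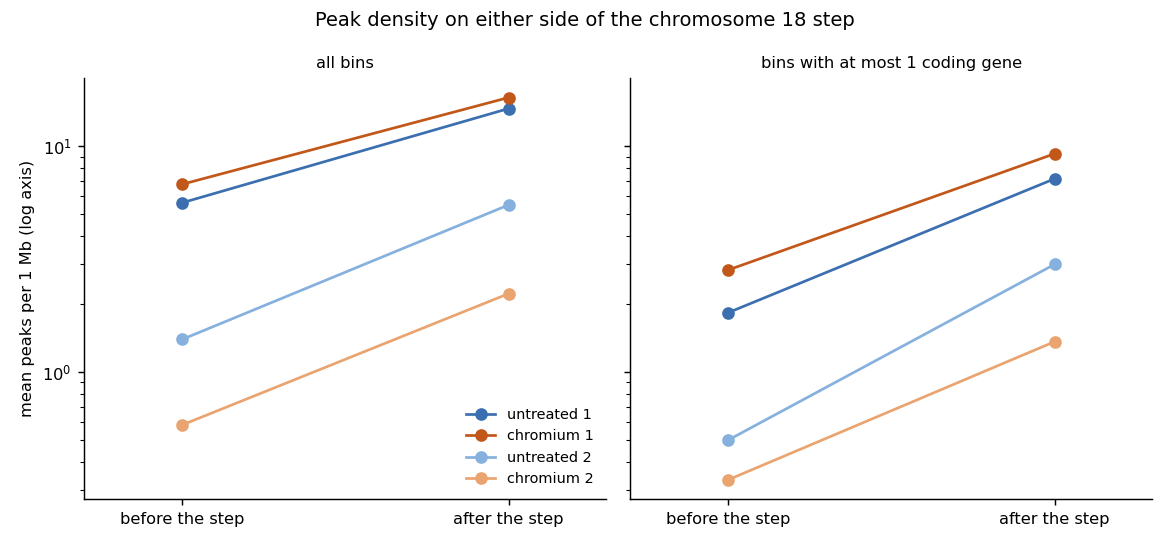
Mean peaks per 1 Mb (log axis) before and after the chromosome 18 step at 51 Mb, in all bins (left) and in bins with at most 1 protein-coding gene (right), with 1 line per list. In all bins the lines rise, from 5.63 to 14.7 in untreated 1 and from 0.583 to 2.23 in chromium 2. On the right untreated 2 rises from 0.5 to 3.0, or to 1.40 without the bin from 51 to 52 Mb. With the step at 52 Mb that bin counts before it, and the rate falls from 1.92 to 1.40.

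Within each side of the step, bins with more genes had more peaks. After the step, Pearson's r between peaks and coding genes over 40 bins was 0.759, 0.714, 0.489 and 0.335. Before it, over 48 bins, r was 0.290, 0.417, 0.306 and 0.068, and a single bin lowered these values. That bin, from 37 to 38 Mb, holds most of the clustered protocadherins and 67 coding genes, the most of any bin on the chromosome, with only 4, 9, 1 and 0 peaks. Without it r before the step was 0.660, 0.704, 0.667 and 0.353 over 47 bins. Bins of a chromosome share the library and are not independent, so no p is given. Of the 57 clustered protocadherin genes, cell adhesion genes of neurons, 1 (Pcdhga12) had a peak at a gene end, in untreated 2 alone. That is 1.75% of them, where 16.0% of the 1570 coding genes of both chromosomes had one in any list.

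Chromosome 17 had no step common to the lists. The fit of a single change gave 88 Mb in untreated 1, 48 Mb in chromium 1, then 37 Mb in untreated 2 and 7 Mb in chromium 2, a range of 81 Mb. In 3 of the 4 lists the sharpest local contrast was a rise at 24, 23 and 23 Mb (untreated 1, chromium 1 and untreated 2), where the mean of 5 bins went from 6 to 26, from 6.6 to 30.4 and from 1.6 to 12 peaks. In chromium 2 it was a fall at 8 Mb. Gene counts were also higher past this position. From 3 to 23 Mb there were 9.25 coding genes per Mb and 8.80, 12.3, 3.80 and 1.60 peaks per Mb, and from 23 to 37 Mb 31.6 genes and 19.9, 26.1, 8.86 and 2.71 peaks. Over the 92 bins, r with coding genes was 0.592, 0.607, 0.626 and 0.256. The last 7 Mb, with 1.71 genes per Mb, were the sparsest stretch, at 4.71, 7.71, 1.57 and 0.857 peaks per Mb.

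The 3 densest bins of each chromosome, by the mean share over the lists, fell in different surroundings. On chromosome 17 these were the bin from 28 to 29 Mb with 30, 33, 10 and 6 peaks, the bin from 35 to 36 Mb with 30, 35, 16 and 3, and the bin from 27 to 28 Mb with 26, 30, 14 and 4. In the bin from 28 to 29 Mb, Mapk14, Ppard, a nuclear receptor of fatty acid metabolism, and Slc26a8 had gene-end peaks in untreated 1 and chromium 1, and 4 other genes in 1 list. In the bin from 27 to 28 Mb these lists shared gene-end peaks at Lemd2, a protein of the inner nuclear membrane, and at Uqcc2, an assembly factor of the respiratory chain, and AI413582 had one in 3 lists. The bin from 35 to 36 Mb is part of the major histocompatibility complex and has 61 coding genes. In this bin 12 genes had a gene-end peak in any list and 5 in 2 or more. These were Cdsn, a skin cell adhesion gene, in 3 lists, Ddr1, a collagen receptor kinase, with Nfkbil1 and Gm9573 in untreated 1 and chromium 1, and the class I gene H2-Q7 in chromium 1 and untreated 2. On chromosome 18 the densest bins were those from 61 to 62 Mb with 46, 41, 9 and 5 peaks and 18 genes, from 75 to 76 Mb with 27, 30, 12 and 6 peaks and 6 genes, and from 76 to 77 Mb with 18, 25, 11 and 6 peaks and 4 genes. In the bin from 61 to 62 Mb, 10 genes had a gene-end peak, of which Hmgxb3 alone had one in 2 lists, and in the bin from 75 to 76 Mb Ctif had one in untreated 2. The bin from 76 to 77 Mb had 60 peaks in all and not 1 of them at a gene end.

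Chromosome 18 had a lower share of its peaks at gene ends than chromosome 17 in each list. A peak was counted at a gene end where its middle lay no more than 1 kb from the lower or upper end of a coding gene. On chromosomes 17 and 18 together these were 122 peaks in untreated 1 (6.47%, interval 5.40 to 7.68), 125 in chromium 1 (5.34%, 4.46 to 6.33), then 51 in untreated 2 (7.40%, 5.56 to 9.62) and 8 in chromium 2 (2.94%, 1.28 to 5.71). On chromosome 17 alone the shares were 7.40, 7.07, 8.46 and 3.87%, and on chromosome 18 alone 5.36, 2.95, 5.92 and 1.71%. The difference, chromosome 18 minus chromosome 17, was negative in 4 of 4 lists and -2.71 points on average (exact sign-flip test over 4 libraries, two-sided, p = 0.125, the smallest this test can give). Chromosome 17 has 1059 coding genes over its 92 bins and chromosome 18 has 511 over its 88. The part of this in the difference was not tested.

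Against all other chromosomes, with 7.53, 6.09, 7.12 and 4.53%, chromosomes 17 and 18 together differed by -0.780 points and were lower in 3 of 4 lists (exact sign-flip test, n = 4, p = 0.25). Chromosome 18 differed by -2.33 points and was lower in 4 of 4 lists (exact p = 0.125). Chromosome 17 differed by 0.382 points (exact p = 0.5). Chromosome 15 had the lowest gene-end shares of those compared except for chromosome 18 in chromium 1 and chromium 2, at 5.03, 3.83, 4.35 and 2.12%. The exact test over 4 libraries cannot go under p = 0.125, and no difference is called.

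**Figure D3:**
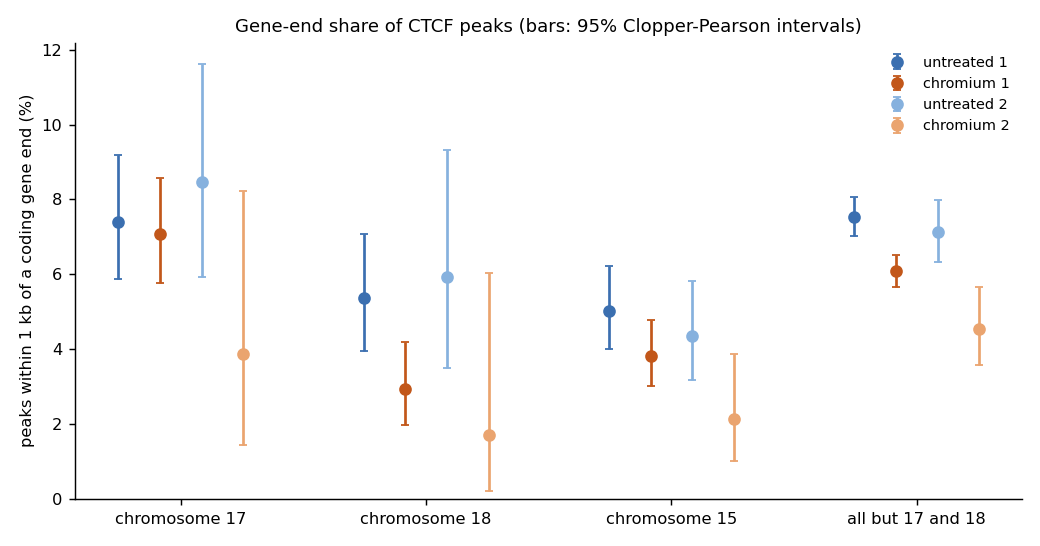
Share of peaks within 1 kb of a protein-coding gene end (y axis, %) on chromosomes 17, 18 and 15 and on all chromosomes but 17 and 18; points are lists and bars are 95% Clopper-Pearson intervals. Chromosome 18 lies below chromosome 17 in each list, for example at 2.95 against 7.07% in chromium 1.

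The study asks whether chromium alters CTCF occupancy at promoters, so the gene-end share was compared between treatments. On chromosomes 17 and 18 the untreated libraries had a mean of 6.94% ± 0.658 (SD, n = 2) and the chromium libraries one of 4.14% ± 1.69 (SD, n = 2). The difference was -2.80 points, and each chromium library was below each untreated one (exact permutation test, two-sided, p = 0.33, the smallest possible). It was -1.13 points within number 1 and -4.46 within number 2. On chromosome 17 alone the difference was -2.46 points and on chromosome 18 alone -3.31. The other chromosomes went the same way, with a mean of 7.33% untreated and 5.31% with chromium, a difference of -2.02 points, and chromosome 15 differed by -1.71 points. On each of these sets of chromosomes both chromium libraries were below both untreated ones. The number 2 value rests on 8 gene-end peaks among the 272 of chromium 2.

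Transcription starts were taken from RefSeq windows, and those of chromosome 18 were not used here. On chromosome 17, within 1 kb of a coding start lay 57 peaks of untreated 1 (5.55%), 64 of chromium 1 (4.71%), then 22 of untreated 2 (5.47%) and 4 of chromium 2 (2.58%). The difference between chromium and untreated was -1.86 points (exact permutation test, n = 2 per group, p = 0.33). The remaining gene-end peaks, away from starts, were 2.63, 3.39, 3.48 and 1.94% of the peaks, a difference of -0.394 points (exact p = 0.667). On the other chromosomes, 18 left out, the start shares were 5.29, 3.58, 4.23 and 2.82%. Chromosome 17 was above these in 3 of 4 lists, by 0.599 points on average (exact sign-flip test, n = 4, p = 0.25).

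On chromosome 18 the gene-end share was lower after the step than before it in each list. The shares before and after were 8.15 and 4.08% in untreated 1, 3.37 and 2.74% in chromium 1, 7.46 and 5.45% in untreated 2 and 3.57 and 1.12% in chromium 2. The later side was lower in 4 of 4 lists, with a mean difference of -2.29 points (exact sign-flip test, n = 4, p = 0.125, the smallest possible). The chromium 2 shares rest on 1 gene-end peak of 28 before the step and 1 of 89 after it, with intervals of 0.09 to 18.3% and 0.03 to 6.10%. Those of untreated 2 rest on 5 of 67 and 12 of 220. The intervals of the sides overlapped in each list. Coding genes were also sparser after the step, 4.95 against 6.52 per Mb, and the part of this in the difference was not tested. The 6.52 includes the bin from 37 to 38 Mb, with 67 coding genes and only 4, 9, 1 and 0 peaks.

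The authors' scores, of a scale that no source used here states, had a median rank close to that on the other chromosomes. Median scores were 4.50, 4.41, 4.27 and 4.21, and 40, 29, 3 and 0 peaks scored over 10. Scores are ranked here as percentiles within a list. The median percentile was 50.7, 49.6, 49.3 and 51.5, a mean difference of 0.139 percentile points from the other chromosomes (exact sign-flip test, n = 4, p = 1). Many scores are tied: the commonest score of each list was shared by 11.7, 11.7, 9.0 and 14.7% of the peaks on chromosomes 17 and 18. In untreated 1 and chromium 1 both medians fell on the same tied score, a difference of 0. Only untreated 2 (-1.05) and chromium 2 (1.60) therefore entered that test, which cannot show that the medians are alike. Peaks with a match in another list had higher medians in 4 of 4 lists, at median percentiles of 85.3, 82.1, 72.0 and 57.6 against 50.7, 49.6, 45.0 and 51.5 for unmatched peaks. The mean difference was 25.1 percentile points, within 0.138 points of that on the other chromosomes. A match counts in both lists, so the libraries are not independent here and no test is given. Chromium 2 had only 9 matched peaks, with a median at its commonest tied score, and on chromosome 18 alone its difference was 0. The matched peaks were also wider in 3 of the 4 lists, with medians of 259, 254, 258 and 209 bp against 226, 224, 224 and 209 bp.

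Recurrence between lists was low. Overlapping peaks of different lists were merged into 4925 sites, 2766 on chromosome 17 and 2159 on chromosome 18. Of these, 215 (4.37%) were in 2 or more lists, where the share over all chromosomes was 4.55%. There were 140 such sites on chromosome 17 (5.06%) and 75 on chromosome 18 (3.47%). In 3 or more lists there were 40 sites, 28 and 12 on the respective chromosomes (0.812% of sites, 0.793% over all chromosomes). No site was in all 4 lists, where over all chromosomes 15 of 31285 were. The shares on these chromosomes were thus close to those of the series.

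Chromium 2 contributed little to this overlap. Of its 272 peaks, 3.31% overlapped a peak of another list, against 10.3% in untreated 1, 7.81% in chromium 1 and 13.2% in untreated 2. On the other chromosomes the matched shares were 5.51% in chromium 2 and 10.8, 7.94 and 13.2% in the other lists. This share can move with density, on which the chromosomes were selected. A match also counts in both lists, so the libraries are not independent in this measure, and it is given without a test. The difference was -0.703 points over the lists but was -0.00463 points without chromium 2. It was 0.361 points when each list was cut to its strongest peaks at the length of the shortest. Between untreated 2 and chromium 2 a single peak of each overlapped, on chromosome 18. Of the 40 sites in 3 lists, 37 were in both untreated lists and chromium 1, and the other 3 had chromium 2 in place of untreated 2. With untreated 1 or chromium 1 left out there was no site in 3 lists, so these counts rest on the 2 longest lists.

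The share at gene ends was higher among recurrent sites than among sites of a single list. On both chromosomes 34 of the 215 sites in 2 or more lists were at a gene end (15.8%, 11.2 to 21.4), against 227 of the 4710 sites in 1 list (4.82%, 4.23 to 5.47). These intervals treat sites as independent and do not overlap. The part of score and width in this difference was not tested. On chromosome 17 the share was 29 of 140 (20.7%, 14.3 to 28.4) against 5.56%, and on chromosome 18 it was 5 of 75 (6.67%, 2.20 to 14.9) against 3.89%. On chromosome 18 the interval of the recurrent sites includes the single-list value. The other chromosomes had 17.4% against 5.47%.

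The highest scoring site away from genes' ends was on chromosome 18 inside Ctif, which encodes a factor in the first round of mRNA translation. It spanned 75599738 to 75600346 with scores of 33.7 in untreated 1, 22.4 in chromium 1 and 13.8 in untreated 2. These are the highest scores of chromosome 18 in those 3 lists, and chromium 2 had no peak there. On chromosome 17 a site inside Tiam2, a Rac exchange factor, spanned 3450980 to 3451451 with scores of 18, 13.7 and 10.1 in the same lists. Both sites lie far from a gene end, 97654 and 23868 bp as measured from the untreated 1 peak.

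Of the 40 sites in 3 lists, 10 were at gene ends, against 55 of 248 sites in 3 or more lists over all chromosomes. Of these 10 sites, 8 lay on chromosome 17 and 2 on chromosome 18, all of them in both untreated lists and chromium 1. The strongest was at Kdm3b, a histone H3K9 demethylase, at 34776722 to 34777083 on chromosome 18, with percentiles of 99.7 in untreated 1, 99.9 in chromium 1 and 95.6 in untreated 2. The other site on chromosome 18 was at Snrpd1, a core protein of spliceosomal particles, at 10617577 to 10617873 with 66.4, 97.6 and 99.3. Each lay next to the lower-coordinate end of its gene. On chromosome 17 the site shared by the ends of Abca3 and Abca17 (24351807 to 24352081) had 99.4, 97.0 and 85.9, and lay 79 bp from the Abca3 start printed above. The site between Slc35b2 and Nfkbie, an inhibitor of NF-kappa B, spanned 45563664 to 45563998 with 98.8, 99.6 and 61.9. These 4 sites were in the upper part of each list that held them.

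The remaining gene-end sites in 3 lists, all on chromosome 17, ranked less evenly. Mlst8, a subunit of the mTOR complexes, had a site at 24478517 to 24479066 with percentiles of 88, 92.7 and 32.5. Dusp1, a phosphatase induced by stress that switches off MAP kinases, had one at 26507970 to 26508284 with 7.08, 65.5 and 95.6. At Tfeb the values were 96.7, 32.1 and 61.9 (47736897 to 47737252), and at AI413582 96.7, 6.31 and 5.46 (27565499 to 27565972). The site at Cdsn, 35556825 to 35557209, had 71.4, 82.1 and 83.4 and lay 4889 bp from the start, at the opposite end of the gene. At 1600014C23Rik the site spanned 45731168 to 45731615 with 80.9, 99.8 and 18.8. A site could thus be near the top of one list and near the bottom of another.

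**Figure D4:**
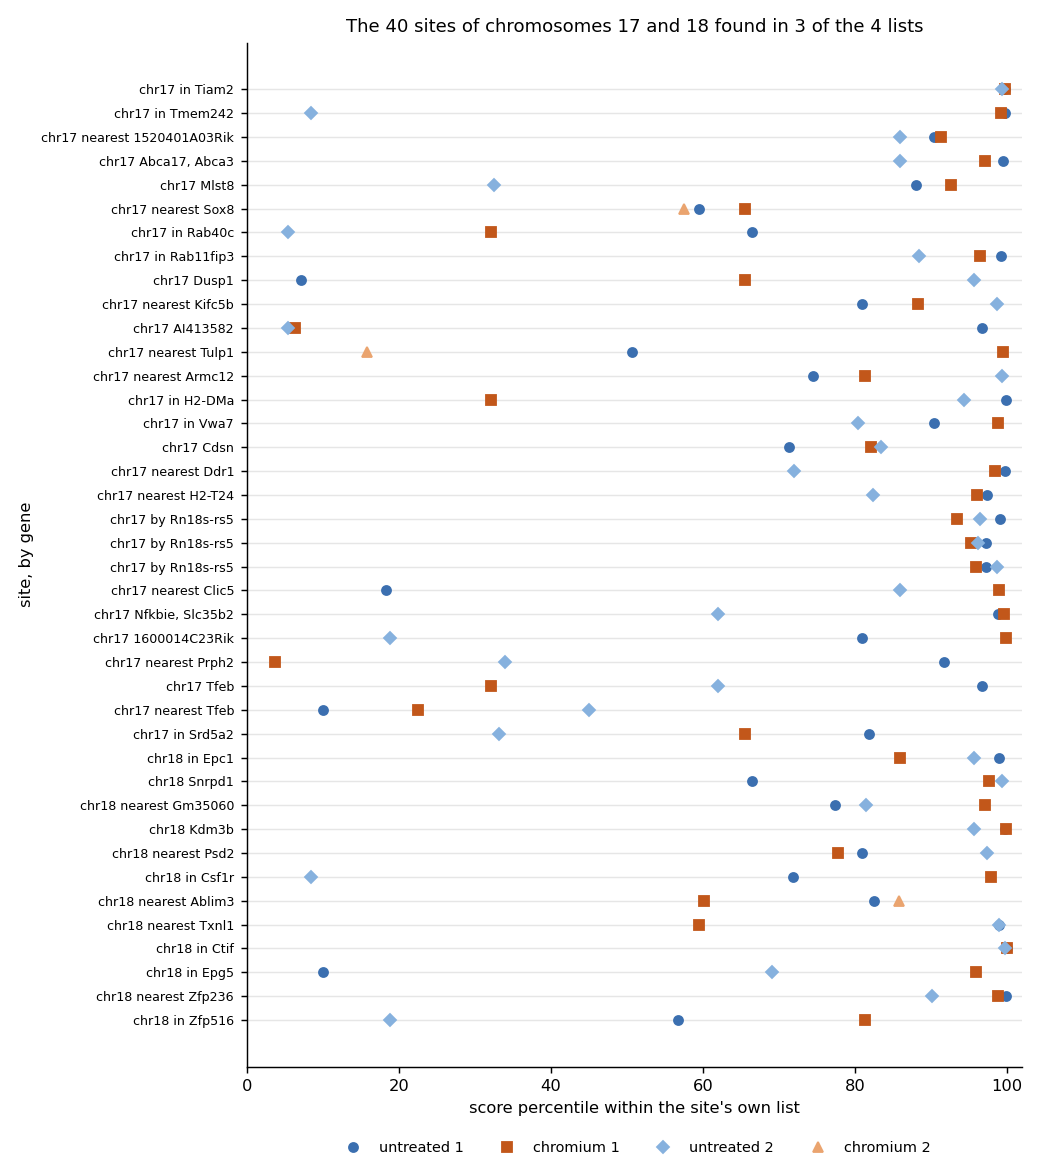
Score percentile within its own list (x axis) of each of the 40 sites on chromosomes 17 and 18 found in 3 lists, by gene (y axis: gene end within 1 kb, gene around the site, or nearest gene). Chromium 2 has a point at only 3 sites, and the Ctif and Tiam2 sites have all their points above 99.

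Away from gene ends, with chromosome 17 meant unless chromosome 18 is named, sites in 3 lists with high percentiles were near Zfp236, a zinc finger gene, on chromosome 18 (82717340 to 82717723, at 99.8, 98.7 and 90.1), inside Rab11fip3, an adaptor of recycling endosomes (26009272 to 26009851, at 99.2, 96.4 and 88.4), inside Epc1, a subunit of a histone acetyltransferase complex (6489726 to 6490221 on chromosome 18, at 98.9, 85.9 and 95.6), and near the class I histocompatibility gene H2-T24 (35997005 to 35997291, at 97.3, 96.0 and 82.3). The 3 sites with chromium 2 lay near Sox8 (25552313 to 25552757), Tulp1 (28368403 to 28368855) and Ablim3 (61793690 to 61794034 on chromosome 18). Their chromium 2 percentiles were 57.6, 15.8 and 85.7. None of the 3 was at a gene end.

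Chromosome 17 also held the most crowded 6 kb of the 2 longest lists. Between 39843000 and 39849000, over and next to Rn18s-rs5, a pseudogene copy of 18S ribosomal RNA, and the start of the long non-coding RNA record AY036118, untreated 1 had 7 peaks, chromium 1 had 10, untreated 2 had 4 and chromium 2 had none. In untreated 1 and chromium 1 no other chromosome had more than 4 peaks in 6 kb, and in untreated 2 the 4 equalled the most on chromosome 9. The peaks were high in their lists, with median percentiles of 97.2, 93.5 and 96.3 and lowest values of 91.7, 3.74 and 91.1. Among the 10 of chromium 1, those at 3.74, 25.4 and 43.7 were below the middle of the list. Part of the peaks in the window formed 3 of the 40 sites in 3 lists. Others were in sites of 2 lists, and the chromium 1 peak that starts at 39843965 had no match. How reads that align to several places were handled is not stated in the labels. Leaving the window out left 37 sites in 3 lists and 210 in 2 or more, against 215 with it.

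**Figure D5:**
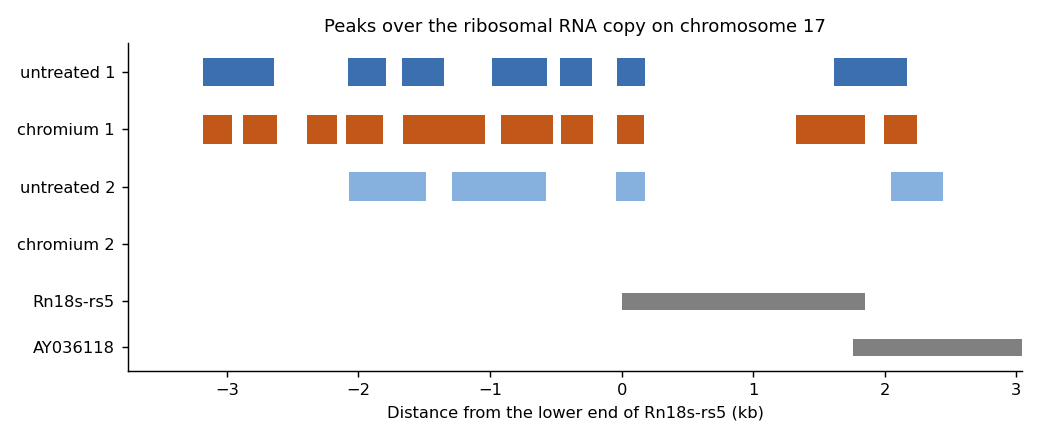
Peaks of each list (coloured bars) in 6 kb of chromosome 17, by distance in kb from the lower-coordinate end of Rn18s-rs5, with the annotated records in grey (AY036118 runs on to the right). Untreated 1 has 7 peaks, chromium 1 has 10, untreated 2 has 4 and chromium 2 has none.

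Sites lost with chromium were counted as those in both untreated lists and neither chromium list. There were 33, 18 on chromosome 17 and 15 on chromosome 18, which is 0.670% of the sites against 0.633% over all chromosomes. Sites gained, in both chromium lists and neither untreated list, numbered 2, or 0.0406% against 0.0479%. With each list cut to its strongest peaks at the length of chromium 2, the shortest, 16 sites were lost. Without chromium 1 the count was 71 sites, without untreated 1 it was 631, and with untreated 2 left out it is that of untreated 1 sites with no chromium match, 1723. Without chromium 2 it was still 33, so that list removed no site. The lost sites are in effect those in both untreated lists and absent from chromium 1.

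The lost sites with the highest mean percentile in the untreated lists, on chromosome 17 unless named otherwise, were inside Cidea, a lipid droplet protein (67364528 to 67365035 on chromosome 18, 97.3), inside Ehmt2, a histone H3K9 methyltransferase (34912124 to 34912453, 97.0), 97066 bp from Zfp516 (82812461 to 82812784 on chromosome 18, 94.8), inside Zbtb7c (76144418 to 76144792 on chromosome 18, 94.7), inside Gm29721 (6553900 to 6554194, 94.1) and at Plin3 (56291205 to 56291479, 93.9). The nearest chromium 1 peak was 13.7, 10.8, 36.7, 6.67, 8.22 and 26.5 kb away, in that order. Over the 33 lost sites the median distance to the nearest chromium 1 peak was 14.5 kb, and 5 had one within 2 kb. Of the 33 lost sites 4 were at gene ends, at Synj2, Ndufb10, Taf8 and Plin3, against 38 of 198 lost sites over all chromosomes. Ndufb10 had another gene-end peak in chromium 1, at percentile 49.6, and 2.41 kb separate the lost site from the nearest peak of that list. The gained sites were inside Dlgap1 on chromosome 17 (70706992 to 70707327), with percentiles of 96.9 in chromium 1 and 37.8 in chromium 2, and at 64749595 on chromosome 18, nearest to Atp8b1.

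The 3 highest scores of each list and chromosome include peaks that recurred and peaks of 1 list. In untreated 1 the highest on chromosome 17 was inside 9830107B12Rik with a score of 21.5, followed by one inside H2-DMa, of the class II complex, with 19.7, and both had a match. In chromium 1 the highest on chromosome 17, with 15.3, was near Fgd2 and had no match, and it was followed by 1600014C23Rik with 14.9 and Sh3gl1, an endophilin of endocytosis, with 14.5. On chromosome 18 the third of chromium 1, near the homeobox gene Rax with 12.8, and the third of untreated 2, inside Arhgef37 with 9.01, had no match. In untreated 2 the Tiam2 site shared its score of 10.1 on chromosome 17 with a peak near Armc12, and Gm29721 followed with 9.44.

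Peaks of chromium 2 that scored highest had no match. On chromosome 17 its highest peak, with a score of 6.28, lay 514 bp from the end of Vmn2r98, a vomeronasal receptor gene, and on chromosome 18 its highest, with 6.49, was near Nedd4l, a ubiquitin ligase. The others were near Gm7030 and inside Map4k3 on chromosome 17, with 6.01 and 5.93, and inside Sil1 and Prrc1 on chromosome 18, with 6.28 and 5.57. In untreated 1, of 40 peaks scoring over 10, 29 had a match in another list, and in chromium 1 it was 20 of 29. Over all chromosomes it was 175 of 240 in untreated 1 and 149 of 206 in chromium 1.

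Few genes of these chromosomes had a gene-end peak in more than 1 list. Of 1059 coding genes on chromosome 17, 84 had one in untreated 1, 107 in chromium 1, then 39 in untreated 2 and 6 in chromium 2, and of 511 on chromosome 18, 44, 27, 16 and 2. In 2 or more lists there were 49 genes on chromosome 17 and 10 on chromosome 18, and no gene had a peak in all 4. Over both chromosomes, 251 of 1570 genes (16.0%) had one in any list and 59 (3.76%) in 2 or more, against which the groups of genes that follow can be read.

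Among 22 genes of liver and lipid metabolism, 8 had a gene-end peak in any list and 4 in 2 or more. Plin5, a lipid droplet protein of oxidative tissue, had one in untreated 1 and chromium 1. Plin3, another droplet coat protein, and Cidea had one in both untreated lists, and Npc1, the lysosomal cholesterol transporter, in chromium 1 and untreated 2. Gene-end peaks of a gene in 2 lists need not overlap. Those of Cidea, at percentiles of 3.75 in untreated 1 and 37.3 in untreated 2, did not, and they are not the lost site inside the gene. Of 20 stress and early response genes, 6 had a peak in any list, all of them in chromium 1, and 3 had one in 2 or more lists. These 3 were Dusp1 in 3 lists, and Mapk14 and Cyp1b1, a xenobiotic-metabolising cytochrome, in untreated 1 and chromium 1. Untreated 1 had 3 of the 20 genes, untreated 2 had 1 and chromium 2 had 0. Chromium 1 is the longest list, and 134 of all 1570 coding genes (8.54%) had a gene-end peak there, against 128 (8.15%) for untreated 1. The percentiles of the 6 genes within chromium 1 ran from 16.8 at Cdkn1a to 95.1 at Mapk14. Of 31 genes of chromatin and transcription 6 had a peak, with Kdm3b in 3 lists and Esco1, an acetyltransferase of cohesin, in untreated 1 and chromium 1.

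Of 29 listed genes of the major histocompatibility complex region 7 had a gene-end peak in any list and 1, Ddr1, in 2 lists. That count depends on the genes listed: outside the list, Cyp21a1, Nfkbil1, H2-Q7, Gm9573, H2-T3 and H2-M5 had one in 2 lists and Cdsn in 3. Of 4 imprinted genes, Impact had one, in chromium 2, and of 7 cadherins of desmosomes and adherens junctions, Cdh2 had one, in chromium 1. None of 7 signalling and tumour suppressor genes had one. Of 6 genes that mark other cell types, Trem2 had peaks in chromium 1 and Csf1r in untreated 1, both genes of macrophages, and none had a peak in 2 lists. These groups are small and no group was tested against the rest.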

How the data were processed

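Peak lists of 4 CTCF libraries were used. Bowtie, MACS2 and the mm10 build are named per the submitters' processing notes, without versions or thresholds. Per the names in the deposited files, each library was called by itself, against the input of its own number. Each deposited list gives, per peak, a score of the authors' caller, used only to rank or filter peaks within a list. Read depth is not given. Positions were made 1-based on chromosomes 1 to 19, X and Y. Peaks overlapping by at least 1 bp were merged into sites. Genes and start windows came from RefSeq (GRCm38.p6), and start windows of chromosome 18 were not used here. Libraries were compared by exact permutation or sign-flip tests and shares given Clopper-Pearson 95% intervals. The scripts, in Python 3.11.15 (scipy 1.17.1, pandas 2.3.3, numpy 2.4.6, matplotlib 3.10.9), were tested on simulated data. The text names sites in 3 lists (gene-end ones first, others by percentile), the 3 top peaks per list and chromosome, the top 6 lost and gained sites, listed genes in 2 or more lists, and genes in the 3 densest bins, more than the 30 genes first planned. The planned tests of the share of each list on the chromosomes and of the matched share are left out, since density selected the chromosomes. Promoters printed, stretches of chromosomes and genes of the remaining groups were chosen after their values were seen. The chromosomes and the 9 gene lists were chosen with earlier results of these data known. Same-numbered libraries share an input, and their deviations over 180 bins had r = 0.096, so they were not treated as pairs. This r includes the short chromium 2 list and cannot show that pairing is absent. Chromosome 15 held 13.3 and 13.0% of the number 1 lists (untreated, chromium), against 22.0 and 24.7% of the number 2 lists.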

Additional observations from a re-analysis of the deposited data

How the results depend on the processing

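Of 117 recomputed values of 11 results, 82 kept their sign, or stayed within 1.5 times a reported count or within 1 SD of the lists' step positions, 9 turned in sign and 26 moved. These ranges are wide: on chromosome 17 the SD is 33.5 Mb, so a joint step at 57 Mb from peaks at or above their list's median score, against 89 Mb, is within it, and the same peaks gave 22 lost sites against 33. No alternative could pass the threshold of 0.05, because the exact tests have too few libraries. The gene-end share difference between chromium and untreated libraries kept its sign in all 13 alternatives, which include the replicate block. In that block the mean of the paired within-number differences was -0.707 points for the share of the list and -2.80 points for the gene-end share. With 1 library of each group per number these equal the main values by arithmetic, so the block is no separate check of the sign.

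Leaving out 1 library gave -1.44 to 0.0234 points for the share of the list, -4.00 to -1.60 for the gene-end share between treatments, -1.13 to -0.509 for the gene-end share against other chromosomes, -0.751 to -0.00463 for the matched share and -0.349 to 0.534 for the median percentile. Sites in 2 or more lists ranged from 62 to 209, those in 3 or more from 0 to 37, lost sites from 33 to 1723 and gained sites from 2 to 2161, since fewer lists change what these counts require. The step lay at 48 to 89 Mb on chromosome 17 and at 51 to 52 Mb on chromosome 18.

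On chromosome 17 alone, the differences from other chromosomes turned to 0.382 points for the gene-end share, 0.202 for the matched share and -0.990 for the percentile. Against chromosome 15 only they were 1.71 and 0.223 points for the first pair of measures. At equal list length, the matched share turned to 0.361 points and the percentile to -0.413, with 74 sites in 2 or more lists, 14 in 3 or more and 16 lost. Peaks at or above their list's median score gave 140, 25 and 0 (2 or more lists, 3 or more, gained), and a score of at least 4 gave 151 in 2 or more lists, 25 in 3 or more and 0 gained. Midpoints within 500 bp gave 5 gained sites. The local contrast over 5 bins placed the steps at 23 and 60 Mb, and 2 Mb bins placed that of chromosome 18 at 50 Mb. Without the crowded 6 kb, an alternative chosen after seeing the data, the joint step of chromosome 17 lay at 37 Mb. The cause of these shifts was not tested. Read depth and duplicate handling are not known, which limits any reading of the lengths of the lists.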
